A study of Mus musculus with 6 samples.

Results

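The genes described here encode hnRNP proteins, SR proteins, the protein subunits of the spliceosomal small nuclear ribonucleoproteins (snRNPs) and the subunits of splicing factor SF3. They were taken by symbol from the deposited table of a mouse embryonic stem cell line: every symbol beginning with Hnrn, Hnrp, Srsf, Sfrs, Snrp, Sf3a or Sf3b, without the imprinted gene Snrpn. This gave 50 of 12331 gene rows, namely 20 hnRNP proteins, 11 SR and SR-related proteins, 11 snRNP proteins and 8 SF3 subunits. The series asked how 2 ways of making a sequencing library compare when the cDNA comes from the RNA content of about 1 cell. RNA came from E14tg2a, an established embryonic stem cell line grown in serum with LIF, the cytokine that keeps such cells undifferentiated. It was purified in bulk, and 10 pg was reverse transcribed from oligo(dT) and amplified by PCR in each preparation, so a level cannot tell fewer expressing cells from less RNA per cell. For 3 libraries, sonication sheared the cDNA before ligation of adaptors. For 3 others, hyperactive Tn5 transposase cut the cDNA and joined adaptors to it, a reaction called tagmentation. All 6 libraries share the cell line, the culture medium and the amplification, and the sample titles name no treatment. Both methods carry the replicate numbers 1 to 3, which the labels call technical, so every p-value here measures the spread between libraries and not between cultures.

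Pre-mRNA splicing is carried out by the spliceosome, which assembles anew on each intron from snRNPs, each made of a small nuclear RNA and proteins. A ring of Sm proteins (genes Snrpb, Snrpd1, Snrpd2, Snrpd3, Snrpe, Snrpf and Snrpg) holds most of these RNAs, and SF3a and SF3b belong to the U2 snRNP, which binds the branch point of the intron. SR proteins, named for their domains rich in arginine and serine, bind exons and promote the use of nearby splice sites. hnRNP proteins coat nascent transcripts and often act against SR proteins, and both families regulate the splicing of their own transcripts. Dividing stem cells make large amounts of these proteins.

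The libraries held between 18852822 and 34681566 alignments. Levels are given in RPKM, reads scaled by gene model length and library alignments, as the authors deposited them. How far each single library recovered transcripts of different length or GC content alike was not tested, so levels compare only roughly between genes. The difference between the methods is set against GC content further below. Stem cell markers were present: 7 of 8 were at 1 RPKM or more in all 6 libraries, and the 8th, Nanog, had a listed value of 0 for number 3 with either method. Of 6 fibroblast markers 5 were in the table: Col1a1 reached 0.832 RPKM at most and Col3a1 0.343 RPKM, Thy1 had 12.1 and 9.55 RPKM in number 1, 2.15 and 1.95 RPKM in number 2 and under 0.1 RPKM in number 3, and Vim, which many cells express, stood at 117 to 187 RPKM. Col1a2 reached 0.0103 RPKM. Summed, the fibroblast markers came to 121 to 187 RPKM with sonication and 136 to 195 RPKM with tagmentation, nearly all of it Vim. Of 4 trophoblast markers, Krt8 stood at 78.8 to 177 RPKM and Krt18 at 150 to 347 RPKM. Tfap2c had 0.987 to 8.16 RPKM and Cdx2 at most 0.0616 RPKM. Of 5 primitive endoderm markers only Dab2 was in the table. It had 5.54 and 9.29 RPKM in number 1 and at most 0.107 RPKM elsewhere. Of 3 neural markers Nes had 0.723 to 2.56 RPKM, Pax6 had at most 0.0535 RPKM, and Sox1 was not in the table. The part of all these markers in the results was not tested. Libraries that share a number resembled each other far more than libraries that share a method. Across the 49 splicing genes that could be tested, log2(RPKM + 1) correlated by 0.966, 0.973 and 0.943 between the methods at numbers 1, 2 and 3, against 0.662 to 0.873 for different numbers. These values describe the libraries, since genes are not independent replicates.

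The snRNP proteins stood highest. Their median level was 119 RPKM over the 6 libraries, against 14.8 RPKM for all 6327 rows that reached 1 RPKM in at least 3 libraries, the filter for testing. Their median transcript length was 1055 bases, against 2107 bases for all rows tested. Snrpd2, which encodes an Sm ring protein, led with 382, 447 and 449 RPKM across sonication libraries 1 to 3 and 224, 425 and 433 RPKM across tagmentation libraries 1 to 3. Its lowest value was that of tagmentation library 1, and the methods overlapped. Snrpg, another Sm protein, had 613, 308 and 239 RPKM with sonication and 437, 300 and 275 RPKM with tagmentation, with number 1 highest in both. Snrpb, the Sm protein whose paralog is Snrpn, had 302, 321 and 200 RPKM and 205, 335 and 245 RPKM. Snrpe belongs to the same ring but followed the number closely, with 416, 131 and 76.7 RPKM against 431, 149 and 97.6 RPKM. Number 1 was thus far above both other numbers for Snrpe in each method, while Snrpf, a further Sm protein, stood at 55.7, 56.6 and 55.8 RPKM in the sonication libraries.

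Proteins bound to the U1 and U2 small nuclear RNAs went in other directions. Snrpa, which binds a stem loop of U1 RNA, had 66.7, 157 and 160 RPKM with sonication and 34.8, 138 and 148 RPKM with tagmentation, lowest in number 1. Snrpc, the U1 protein at the 5′ splice site, was lowest in the same number, with 47.9, 182 and 93.2 RPKM against 45.0, 214 and 129 RPKM. Snrpb2, the close relative of Snrpa on U2 RNA, was highest there, with 24.9, 10.5 and 17.3 RPKM against 34.4, 1.83 and 9.26 RPKM. Its 2 libraries of number 2 also lay farther apart than those of number 1 on the log2(RPKM + 1) scale, by -2.02 against 0.45 (tagmentation minus sonication). Of the remaining snRNP genes, Snrpa1 and Snrpd1 had means of 180 RPKM and 98.4 RPKM over the 6 libraries, and Snrpd3 stood between 6.25 and 28.5 RPKM.

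SF3 subunits covered a wide range of levels although they work in 1 complex. Sf3b5, a small SF3b subunit, had 221, 342 and 220 RPKM with sonication and 107, 269 and 182 RPKM with tagmentation. Sf3a3, of the SF3a trimer, had 228, 92.7 and 30.9 RPKM and 222, 122 and 57.0 RPKM, highest in number 1 and lowest in number 3 in both methods. Sf3b2 was the reverse, with 61.7, 73.8 and 99.0 RPKM and 47.8, 89.0 and 148 RPKM. Sf3b1, which contacts the branch point and is the target of several splicing inhibitors, was far below these in numbers 2 and 3. It had 38.0, 4.10 and 8.95 RPKM with sonication and 41.1, 0.859 and 2.88 RPKM with tagmentation, or 7126, 558 and 1045 reads and 5340, 184 and 619 reads. Sf3a2 was low in number 1 instead, at 4.48 and 2.79 RPKM against 16.2 to 28.2 RPKM in the 4 other libraries. Sf3b4 kept to a narrow range, with 29.0, 33.5 and 27.6 RPKM and 34.0, 35.9 and 38.4 RPKM. Sf3b3 was highest in number 1, at 41.6 and 36.4 RPKM, and Sf3a1 had a mean of 12.6 RPKM.

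Among SR proteins the highest was Srsf2, which acts in both constitutive and regulated splicing, with 174, 83.2 and 83.9 RPKM with sonication and 277, 107 and 146 RPKM with tagmentation. Srsf7 followed with 139, 131 and 48.6 RPKM and 176, 208 and 98.1 RPKM. Srsf3, the smallest SR protein, had 119, 73.5 and 64.0 RPKM and 175, 131 and 188 RPKM, so that every tagmentation library was above every sonication library. Several SR genes, among them Srsf9, Srsf1 and Srsf4, stood far lower in a single number. Srsf9 had 73.7 and 40.7 RPKM in sonication libraries 1 and 2 and 74.6 and 64.5 RPKM in tagmentation libraries 1 and 2, but 0.547 and 0.892 RPKM in number 3. Srsf1, the founding SR protein and a proto-oncogene, had 45.1, 4.48 and 13.8 RPKM and 79.5, 0.811 and 31.5 RPKM, with number 2 lowest. Srsf4 was lowest in number 1, at 5.42 and 3.65 RPKM, against 21.6 to 40.8 RPKM elsewhere. Srsf10, a splicing repressor when dephosphorylated, had 6.69, 0.498 and 1.35 RPKM and 9.32, 0.0468 and 0.223 RPKM. Sfrs18, an SR-related gene now called Pnisr, reached at most 0.818 RPKM (129 reads) and was the 1 member not tested. Srsf11 had a mean of 16.8 RPKM.

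The hnRNP genes were led by Hnrnpab, with 251, 318 and 162 RPKM with sonication and 330, 574 and 405 RPKM with tagmentation. Hnrnpm had 103, 291 and 78.5 RPKM and 127, 323 and 120 RPKM, highest in number 2. Hnrnpf, which binds runs of guanines, had 127, 102 and 84.0 RPKM and 175, 185 and 222 RPKM, and its methods did not overlap. Most other hnRNP genes were highest in number 1 in both methods. Hnrnpc, which coats uridine-rich introns, had 201, 67.4 and 38.4 RPKM and 226, 85.8 and 66.5 RPKM. Hnrnpu, which also binds chromatin, had 106, 29.4 and 18.4 RPKM and 154, 33.7 and 21.8 RPKM. Hnrnpd, a factor of mRNA decay at AU-rich elements, had 67.2, 10.3 and 7.93 RPKM and 107, 8.38 and 10.9 RPKM. Number 1 was above both other numbers for each of these 3 genes. Hnrnpa0 had 48.0, 5.75 and 16.9 RPKM and 76.9, 0.852 and 3.15 RPKM, and Hnrnpul2 had 21.1 and 30.7 RPKM in number 1 but 0.282 to 3.12 RPKM in the 4 other libraries. Hnrnpul1 was very low in number 3, with 0.0554 and 0.161 RPKM there against 3.88 to 5.69 RPKM in the 4 other libraries. Hnrnpa1, often described as one of the most abundant hnRNP proteins, had 25.1, 25.6 and 11.8 RPKM and 30.1, 26.9 and 13.6 RPKM. It has many processed pseudogenes, and with the treatment of reads with several matches not given, its level is uncertain. Hnrnpk, which binds runs of cytosines, had 165, 56.0 and 42.9 RPKM against 212, 74.6 and 98.6 RPKM. Hnrnpl broke the likeness within a number: in number 3 it had 23.3 RPKM with sonication but 4.17 RPKM with tagmentation, while its 4 other values lay between 19.0 and 30.0 RPKM. Hnrpdl, Hnrnph1 and Hnrnpa2b1 averaged 73.3, 64.4 and 60.3 RPKM, all highest in number 1. Hnrnpr and Hnrnph2 averaged 7.70 and 5.15 RPKM.

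**Figure D1:**
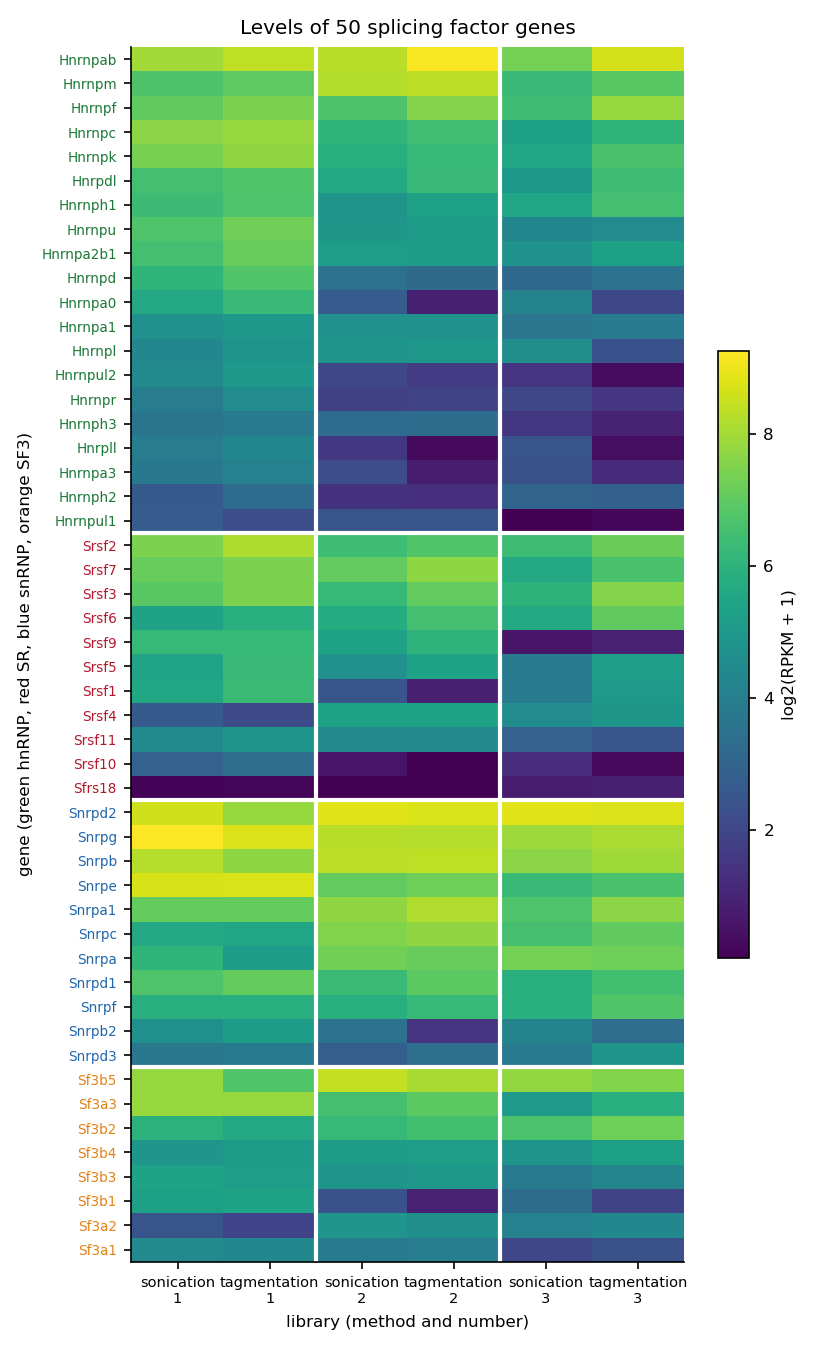
Level of each of the 50 genes, as log2(RPKM + 1) by colour, in the 6 libraries, with libraries of the same number side by side and genes grouped by role and ordered by mean. Neighbouring columns of 1 number look alike, while Srsf9 is dark in number 3, Srsf1 and Sf3b1 are dark in number 2, and Sfrs18 is dark in all libraries.

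The level of most splicing genes, like that of most rows in the whole table, differed between replicate numbers. With the method as a term, limma's F test at a Benjamini-Hochberg adjusted p under 0.05 called 40 of the 49 tested members (81.6%) as different between numbers, against 88.1% of all 6327 rows. By role these were 18 of 20 hnRNP genes, 8 of 10 SR genes, 7 of 11 snRNP genes and 7 of 8 SF3 genes. A call together with a range of 4-fold or more between the number means was found for 21 members (42.9%), against 58.5% of all rows. The count of calls was 31 without replicate 1 (63.3%, against 72% of rows), 23 without replicate 2 (46.9%, against 60.9%) and 25 without replicate 3 (51%, against 69.9%). With median-ratio scaling 46 members (93.9%) and 92.4% of rows were called, so that the members' share was no longer the lower one. Because each number holds 1 library per method, the test takes the difference between methods within a number as its error. With 210 prior degrees of freedom, that error mostly reflects other genes of similar level, and so do the small p-values.

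The widest range belonged to Srsf9, with 5.46 on the log2(RPKM + 1) scale between its highest and lowest number mean (adjusted p 6.11e-38). Without number 3 its range was 0.52 and it was not called (adjusted p 0.233). Srsf1 followed with 4.27 (adjusted p 5.93e-23), Hnrnpa0 with 4.13 (4.19e-22), Hnrnpul2 with 3.83 (6.03e-22) and Sf3b1 with 3.72 (3.19e-20). With no filter the adjusted p was far larger, though still under the threshold. It was 0.00148 for Srsf9, 0.0248 for Srsf1, 0.0295 for Hnrnpa0, 0.00695 for Hnrnpul2 and 0.00899 for Sf3b1. Sf3a2 had a range of 2.57 (1.45e-11), Snrpb2 one of 2.41 (4.47e-09) and Snrpe one of 2.28 (1.49e-08). Snrpb2 was not called with no filter (0.0798), after the GC correction (0.183) or without replicate 2 (0.101). Without replicate 1 the ranges of Hnrnpa0, Hnrnpul2, Sf3b1, Sf3a2 and Snrpe were 1.29, 0.98, 1.01, 0.54 and 0.69, and without replicate 2 that of Srsf1 was 1.48, all still called. The narrowest ranges on the deposited scale were those of Hnrnpf with 0.13 (adjusted p 0.931) and Sf3b4 with 0.14 (0.931). With median-ratio scaling Hnrnpf had 0.43 and was called (0.0176), and Snrpb was narrower at 0.12; after the GC correction Hnrnpf had 0.86 (0.0743). Hnrnpab (0.73, adjusted p 0.126), Srsf3 (0.55, 0.324), Srsf6 (0.73, 0.134), Snrpf (0.46, 0.470), Snrpb (0.56, 0.310) Snrpd2 (0.59, 0.207) and Snrpd1 (0.74, 0.132) were not called either. Of these, Hnrnpab, Srsf3, Srsf6, Snrpf and Snrpd2 were called with median-ratio scaling and with quantile normalization (adjusted p 0.00244 to 0.0428). Sf3b5 was called with a range of 0.98 (adjusted p 0.0340), but not with a pseudocount of 0.1 RPKM (0.0512), no filter (0.0957), no method term (0.118) or without replicate 2 (0.650). The 10th SR gene tested, Srsf5, had a range of 1.33 (adjusted p 0.00160). It was not called after the GC correction (0.131), with no method term (0.0938) or without replicate 1, 2 or 3 (0.0526, 0.0601 and 0.0567).

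The higher the level, the smaller was the median spread between numbers. In the 24 members with a mean of 10 to 100 RPKM the median range between numbers was 1.64, against 2.51 for the 3304 rows of that level. In the 17 members at 100 to 1000 RPKM it was 1.21, against 1.03 for 572 rows, and in the 8 members under 10 RPKM it was 2.47, against 2.57 for 2413 rows. No member had a mean over 1000 RPKM. By role the median range was 1.01 for snRNP genes, 1.64 for SR genes, 1.72 for SF3 genes and 1.93 for hnRNP genes, against 2.38 for all rows tested.

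**Figure D2:**
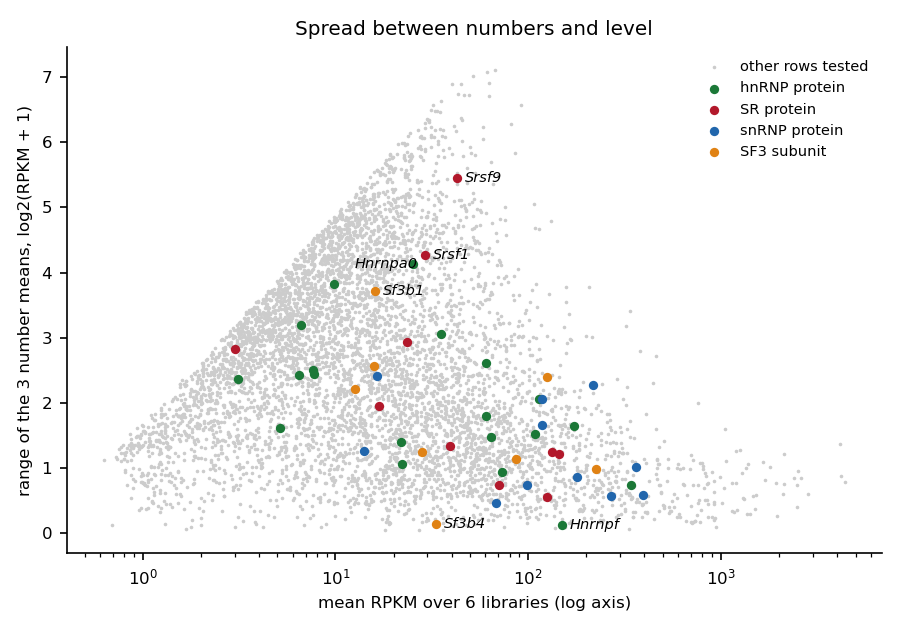
Range of the 3 number means of log2(RPKM + 1) against the mean RPKM over 6 libraries on a log axis, for each tested gene, with the 49 splicing genes coloured by role. Srsf9, Srsf1, Hnrnpa0 and Sf3b1 lie between 3.72 and 5.46, and Hnrnpf and Sf3b4 lie near 0.

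Number 1 held the most hnRNP transcript. Of the 20 hnRNP genes 17 had their highest number mean there, as did 7 of 10 SR genes, 4 of 11 snRNP genes and 4 of 8 SF3 genes, or 65.3% of all members against 39.7% of all rows. Number 2 was highest for 11 members, against 38.2% of rows, and number 3 for 6, against 22.1%. Number 3 was lowest for 25 members (51%), against 39.3% of rows. After correcting each library for GC content, an alternative added after the data were seen, the counts were 11, 5, 2 and 5, or 46.9% of members against 39.5% of rows. Summed over the 20 hnRNP genes the level was 1459, 1072 and 606 RPKM across sonication libraries 1 to 3 and 1929, 1514 and 1189 RPKM across tagmentation libraries 1 to 3. The 11 SR genes summed to 667, 473 and 306 RPKM and to 959, 703 and 665 RPKM. Both sums were higher after tagmentation within each number. The snRNP sum was 2164, 1913 and 1468 RPKM against 1752, 2055 and 1763 RPKM, lower after tagmentation in number 1 only. The SF3 sum was 644, 615 and 420 RPKM against 510, 586 and 469 RPKM, lower after tagmentation in numbers 1 and 2.

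Between methods, Srsf3 and the SR genes Srsf5 and Srsf6 were higher after tagmentation in all 3 numbers, as were Hnrnpab and Hnrnpf. Srsf5 had 42.6, 25.4 and 13.7 RPKM after sonication against 77.9, 41.5 and 35.8 RPKM after tagmentation. Srsf6 had 40.6, 53.3 and 51.1 RPKM against 58.1, 89.8 and 130 RPKM, and every tagmentation library was above every sonication library. In limma's test without the replicate number, no member was called at an adjusted p under 0.05, as 0 of all 6327 rows were (0%). At an unadjusted p under 0.05 stood 1 member, Hnrnpf, and 18 rows in all (0.284%). Hnrnpf averaged 104 ± 21.7 RPKM in sonication and 194 ± 24.4 RPKM in tagmentation libraries (SD, n = 3), a log2 difference of 0.90 (SE 0.40, unadjusted p 0.0490, limma's adjusted p 1.00). The lack of calls does not show that the methods gave equal levels.

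With the replicate number as a block, limma called 4 of 49 members (8.16%) and 208 of 6327 rows (3.29%). Srsf3 rose, from 85.4 ± 29.2 RPKM to 164 ± 29.8 RPKM, by 0.97 (SE 0.30, adjusted p 0.0452). Srsf5 rose as well, from 27.2 ± 14.5 RPKM to 51.7 ± 22.8 RPKM, by 0.96 (SE 0.30, adjusted p 0.0454), and both were higher in 3 of 3 numbers. Hnrnpa0 was called lower by -1.10 (SE 0.30, adjusted p 0.0194) and Hnrpll by -0.98 (SE 0.29, adjusted p 0.0319). Hnrpll regulates the splicing of the leukocyte antigen CD45. Neither decrease was shared by number 1, where Hnrnpa0 stood at 48.0 and 76.9 RPKM and Hnrpll at 14.6 and 18.4 RPKM, the tagmentation library higher each time. In numbers 2 and 3 Hnrpll went from 1.91 and 4.46 RPKM to 0.241 and 0.342 RPKM, or from 131 and 262 reads to 26 and 37 reads. For Hnrnpa0 the reads went from 339 and 855 to 79 and 293. In the fit without the block, leaving out tagmentation replicate 2 gave Hnrnpa0 a log2 difference of -0.0096, but sonication replicate 2 stayed in. With the block and number 2 left out in both methods it was -0.72, and it was not called. The mean RPKM of Hnrnpa0 went the other way, from 23.6 ± 21.9 RPKM to 27.0 ± 43.2 RPKM, since number 1 dominates it.

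The rows called with the block were 1.58% higher and 1.71% lower, and the members 2 and 2. With median-ratio scaling the members called were 7 higher and 2 lower (18.4%, against 8.76% of rows), and with quantile normalization 6 and 1 (14.3%, against 7.52%). Srsf3 and Srsf5 were called in both, Hnrnpa0 and Hnrpll in neither. After the GC correction, with a pseudocount of 0.1 RPKM, after a length correction, with no filter, without replicate 2 and without replicate 3 no member was called, and without replicate 1 the number was 17 (34.7%, against 16.6% of rows). Over the 12 fits with the block, Srsf3 and Srsf5 passed in 6 each, and their log2 difference was 0.69 to 1.23 and 0.55 to 1.34 over all 24 alternatives. With 210 prior degrees of freedom against 2 of its own, a gene's SE in the fit with the block mostly reflects other genes of similar level.

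**Figure D3:**
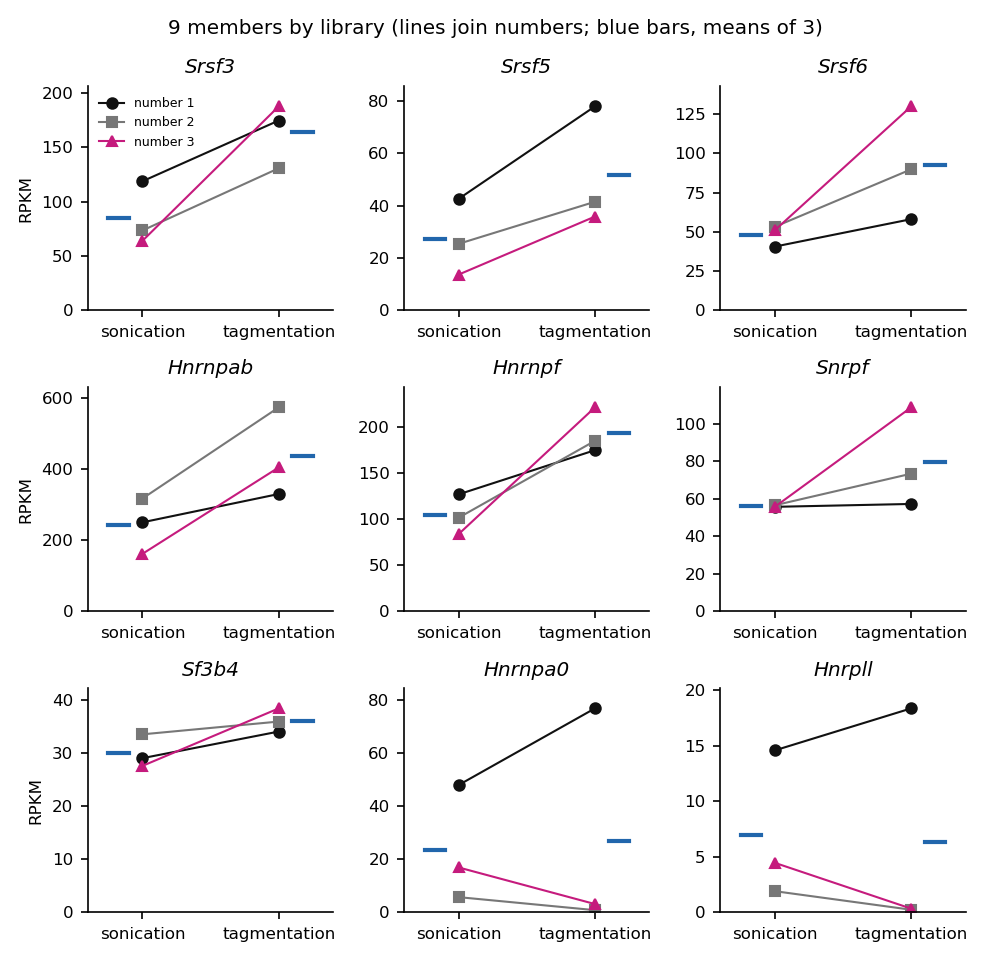
RPKM in each library for the 9 members that were called with the replicate block or whose methods did not overlap, with lines joining libraries of the same number and blue bars at the mean of 3 libraries. For Srsf3, Srsf6, Hnrnpab, Hnrnpf, Snrpf and Sf3b4 all tagmentation libraries lie above all sonication libraries, and for Hnrnpa0 and Hnrpll number 1 goes up while numbers 2 and 3 go down.

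For 6 of 49 members (12.2%) the 3 libraries of the methods did not overlap, against 2.4% of all rows. All 6 were higher after tagmentation, a direction found for 1.88% of rows: Hnrnpab, Hnrnpf, Srsf3, Srsf6, Snrpf and Sf3b4. Hnrnpab had a log2 difference of 0.85 (SE 0.30 and adjusted p 0.0874 with the block), Hnrnpf one of 0.90 (SE 0.30, adjusted p 0.0684) and Srsf6 one of 0.86 (SE 0.30, adjusted p 0.0838). Snrpf, at 0.45 (SE 0.30, adjusted p 0.471), and Sf3b4, at 0.26 (SE 0.29, adjusted p 0.724), were separated by less. In number 1 the values of Snrpf were 55.7 and 57.3 RPKM. The count of members higher without overlap was 2 with median-ratio scaling (against 1.44% of rows), 2 with the GC correction (1.07%) and 3 with quantile normalization (1.74%). Without replicate 1 it was 11 (22.4%, against 12.5% of rows), beside 8 lower (16.3%, against 9.78%).

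Srsf3 and Srsf5 were 2 of a larger group that shared their direction in every number, of which no other passed the test with the block. Of the 49 members 20 (40.8%) were higher after tagmentation in 3 of 3 numbers, against 19.6% of all rows, and 3 (6.12%) were lower in 3 of 3, against 14.2%. The 20 comprised 9 hnRNP, 6 SR, 4 snRNP and 1 SF3 genes, and the 3 lower ones were Snrpa, Snrpd2 and Sf3b5. With median-ratio scaling and with quantile normalization 18 members were higher in all 3 numbers, against 22.8% and 27% of rows. After the GC correction there were 12 (24.5%), against 20.8% of rows.

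The hnRNP and SR genes were nearly all on 1 side in number 1. There 19 of 20 hnRNP genes and 9 of 10 SR genes were higher after tagmentation, but 5 of 11 snRNP genes and 2 of 8 SF3 genes, against 38.6% of all rows. The exceptions among the first 2 groups were Hnrnpul1 and Srsf4. The median log2 difference in number 1 was 0.38 for hnRNP, 0.49 for SR, -0.031 for snRNP and -0.14 for SF3 genes, against -0.072 for all rows, and with median-ratio scaling it was 0.63, 0.73, 0.21 and 0.096, against 0.025. With that scaling the hnRNP and SR counts were the same and the others were 7 of 11 and 5 of 8.

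GC content moved with this pattern. The median GC content of the transcripts, in the GENCODE M21 annotation, was 44.5% for hnRNP, 46.7% for SR, 49.8% for snRNP and 49.9% for SF3 genes, against 51.7% for all rows. Across 6265 rows the log2 difference in number 1 correlated with GC content by -0.637 (Pearson's r), and across the 49 members by -0.389, while in numbers 2 and 3 the members gave 0.164 and 0.0124. All rows share the same 2 libraries in each number. In number 2, 31 of 49 members (63.3%) were higher after tagmentation, against 58.7% of rows, and in number 3, 34 (69.4%), against 65.4%. After the GC correction 10 of 20 hnRNP genes, 7 of 10 SR genes, 2 of 11 snRNP genes and 1 of 8 SF3 genes were higher after tagmentation in number 1, against 37.3% of rows.

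**Figure D4:**
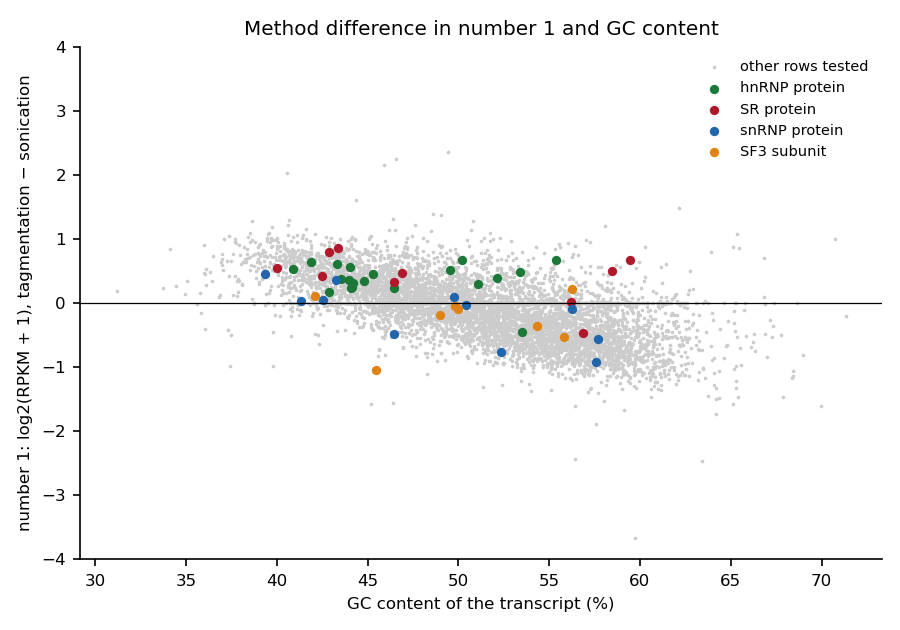
Difference in log2(RPKM + 1) between tagmentation and sonication library 1 against the GC content of the transcript in percent, for each tested gene, with the splicing genes coloured by role. The cloud of all rows slopes down (r = -0.637), and 19 of 20 hnRNP genes lie above 0.

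SR genes had the largest median difference of the 4 roles in the other numbers too, 0.50 in number 2 and 0.90 in number 3, against 0.079 and 0.20 for all rows. With median-ratio scaling, which moved the median of all rows in number 3 to -0.11, these SR medians were 0.35 and 0.46, and after the GC correction 0.53 and 0.95. In number 2, 6 of 10 SR genes (60%) were higher after tagmentation, near the 58.7% of all rows. In number 3 it was 8 of 10 (80%, against 65.4%), and 7 of 10 with median-ratio scaling or quantile normalization. For hnRNP genes the medians were 0.10 and 0.21, but -0.048 and -0.087 with median-ratio scaling. Over all 49 members the median log2 difference of the fit without the block was 0.17, against 0.028 for all rows. It was -0.18 without sonication replicate 3, -0.060 without tagmentation replicate 1, 0.45 without sonication replicate 1 and 0.51 without tagmentation replicate 3. Leaving out 1 library leaves its number in 1 method only, so differences between numbers enter these values. With the block and a whole number left out, the median was 0.22, 0.20 and 0.18 without replicates 1, 2 and 3. With median-ratio scaling the members' medians within numbers 1 to 3 were 0.55, -0.0076 and 0.013.

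**Figure D5:**
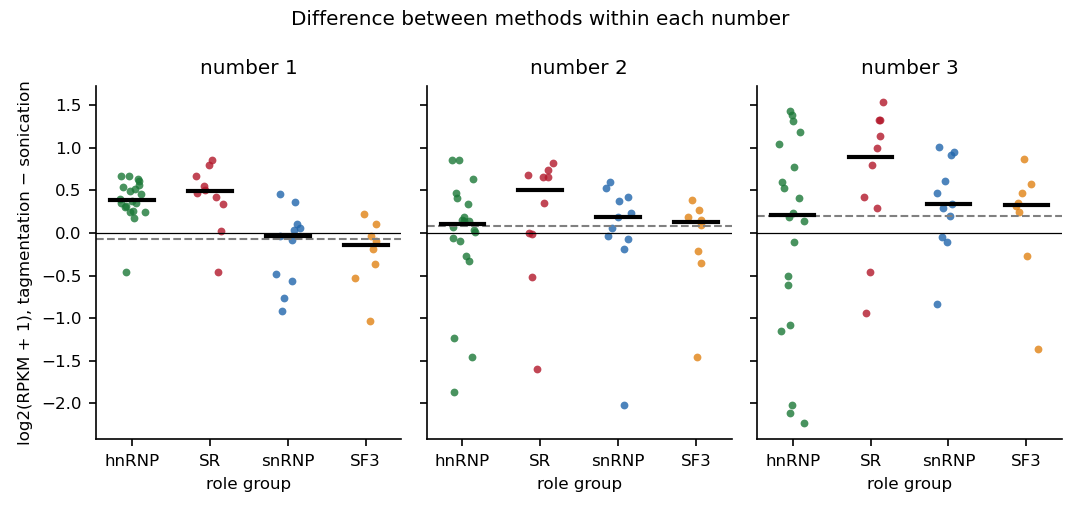
Difference in log2(RPKM + 1) between tagmentation and sonication for each tested splicing gene, by number and role, with black bars at the median of the role and a dashed grey line at the median of all rows tested. SR genes have the highest median in each number, and several hnRNP genes lie below -1 in numbers 2 and 3.

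In numbers 2 and 3 the splicing genes of low level leaned the other way. Of 14 members with a mean under 10 RPKM over the 2 libraries of number 2, 10 (71.4%) were lower after tagmentation, against 52.7% of rows at that level. Of the 35 members at 10 RPKM or more, 8 (22.9%) were lower, against 31.4% of rows. In number 3 the counts were 9 of 13 (69.2%, against 48% of rows) and 6 of 36 (16.7%, against 19%). With median-ratio scaling they were 12 of 14 (85.7%, against 62.1% of rows) and 14 of 35 (40%, against 46.9%) in number 2. In number 3 they were then 10 of 13 (76.9%, against 68.4%) and 14 of 36 (38.9%, against 49.5%), so that in this number the low members were nearer the share of all low rows. With quantile normalization 78.6% of the low members were lower in number 2, against 44.1% of rows, and 69.2% in number 3, against 42.5%. After the GC correction these shares were 71.4%, against 52.6%, and 61.5%, against 48.7%. Hnrnpa3, with 3.73 and 4.03 RPKM in sonication libraries 2 and 3 and 0.729 and 1.25 RPKM in the tagmentation libraries of those numbers, is an example, as are Sf3b1, Hnrpll and Srsf10. Each of these 4 was higher after tagmentation in number 1, where it stood higher.

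Fewer splicing genes, and fewer of all rows, reached 1 RPKM in tagmentation libraries 2 and 3 than in the sonication libraries of those numbers. The counts were 49, 48 and 47 of 50 (98%, 96% and 94%) in sonication libraries 1 to 3. They were 49, 43 and 43 of 50 (98%, 86% and 86%) in tagmentation libraries 1 to 3. The shares of all rows were 55.2%, 51.5% and 49.3% with sonication and 55%, 48.3% and 44% with tagmentation. Below 1 RPKM in tagmentation library 2 but not in sonication library 2 were Hnrnpa0, Hnrnpa3, Hnrpll, Sf3b1 and Srsf1. In tagmentation library 3 these were Hnrnph3, Hnrnpul2, Hnrpll and Srsf10. No member was listed at 0 in any library.

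Other genes of the spliceosome, taken from a list of 127 names of which 126 were in the table, gave 112 tested rows. None was called between methods without the block, and with it 4 were called higher and 2 lower (5.36%, against 3.29% of all rows). Higher were Lsm5, of the ring on U6 RNA (32.0, 37.7 and 35.1 RPKM against 50.9, 82.1 and 107 RPKM), Syncrip, an hnRNP-like protein (11.8, 24.4 and 7.68 RPKM against 24.8, 48.5 and 16.2 RPKM), Prpf38b and Luc7l3. Lower were Txnl4b, with 4.25, 3.87 and 8.42 RPKM against 2.70, 0.129 and 0.417 RPKM, and Cdc5l, of the Prp19 complex, with 38.1, 5.24 and 5.16 RPKM against 36.4, 0.918 and 1.08 RPKM. In all 3 numbers 35 of the 112 (31.2%, against 19.6% of all rows) were higher after tagmentation. The median log2 difference was 0.072. Between numbers 93 (83%, against 88.1% of all rows) were called.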

How the data were processed

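RPKM per gene was measured in 6 libraries, 3 per method, and the RPKM values were used as the authors deposited them. The submitters' processing notes name CASAVA 1.7.0, Partek and the mouse build mm9. Which program aligned the reads, which gene models were counted and how reads with more than 1 match were treated was not given there. Of 9531 genes with at least 4 values above 0, the values of 73.3% were whole multiples of 1 read (6.5% when the totals were shifted by 1 library), which gave the reads quoted for some genes. The file header gives 18852822 to 34681566 alignments per library.

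Rows with 1 RPKM or more in at least 3 libraries were tested with limma 3.58.1 in R 4.3.3 on log2(RPKM + 1), with mean-dependent shrinkage of the variance. Tests were two-sided, with Benjamini-Hochberg adjustment over all 6327 rows and a threshold of 0.05. The pseudocount of 1 RPKM understates the change of low genes. Fold changes are tagmentation minus sonication. The main model had no block. Same-number libraries deviated together from their method's means (r = 0.952, 0.969 and 0.934, against -0.175 or lower for different numbers), so the numbers were taken as pairs and a blocked fit is given beside it. The labels do not say whether libraries of 1 number share cDNA. Same-number libraries had a chi-square of their reads of 79.7 to 130.6 per degree of freedom, and other pairs one of 316.2 to 1098. This statistic allows for read-counting error only, and all pairs differed by far more than that. PCR copies are not independent molecules. No library was merged with another.

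Genes were named by rule: those called between methods, those whose methods did not overlap, the 3 highest of each role, and the 2 widest and 2 narrowest ranges between numbers of each role. Other members were named after their values were seen. The members and lists were chosen with earlier results of these data known. Length and GC content came from the GENCODE M21 transcripts by symbol, for 6265 of the 6327 rows. Alternatives were the pseudocount, the filter, median-ratio scaling, quantile normalization, GC and length corrections, the block and leaving out libraries. The scripts were tested on simulated data.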

Additional observations from a re-analysis of the deposited data

How the results depend on the processing

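Without the replicate block, limma called 0 of the members and 0 of all rows between methods under every alternative run. With the replicate block it called 208 rows and 4 members. With the replicate block and a pseudocount of 0.1 RPKM the calls were 8 and 0, with one of 5 RPKM 168 and 2, for rows averaging at least 10 RPKM 168 and 4, with median-ratio scaling 554 and 9, with quantile normalization 476 and 7, with the length correction 57 and 0, and with the GC correction or no filter 0 and 0. With the replicate block, 1051 rows and 17 members were called without replicate 1, 10 and 0 without replicate 2, and 19 and 0 without replicate 3. Without the block, the median log2 difference of the members went from -0.18 to 0.51 when 1 library was left out. With the block it was 0.18 to 0.22 when 1 number was left out. Between numbers, the call covered 3411 of 4023 rows at a mean filter of 10 RPKM, against 5577 of 6327, and 23 to 31 members when 1 number was left out. The cause of these shifts was not tested, except that a filter or a left-out number leaves fewer rows or libraries. None of the log2 differences of the 9 members plotted by library changed sign under an alternative. The directions within numbers, the overlap counts and their scalings were examined under alternatives chosen after the data were seen. Counts of members at 1 RPKM moved by less than 1.5 times with median-ratio scaling. Precision is limited by 3 libraries per method from 1 cell line, and by reads that are PCR copies without molecular identifiers.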
